A study of Mus musculus with 2 samples.

Results

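The mouse family of miR-103 and miR-107 comprises Mir107, Mir103-2 and Mir103-1, 3 microRNA (miRNA) genes that lie inside introns of the pantothenate kinase genes Pank1, Pank2 and Pank3. They were taken by their GENCODE symbols from the 1973 miRNA gene rows of each deposited table, and all 3 had a row. The levels come from newborn adrenal glands at postnatal day 0 of the strain B6NCrl, in 1 group of 2 littermates, with a library made from the pair of adrenals of each animal. The samples carry no treatment, transgene or mutation, the sex was not collected, and the series has no second group. The labels name separate pups of a single pregnancy, called pup 2 and pup 1 here, but give both the same donor identifier. If that identifier meant a single animal, the SDs (n = 2) would describe technical spread only. RNA shorter than 30 nucleotides entered the libraries, which keeps mature miRNAs.

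A miRNA gene is transcribed as part of a longer RNA, from which a hairpin is cut and then trimmed to a short duplex of a 5p and a 3p arm. The arm loaded into an Argonaute protein pairs with target transcripts mainly through its seed, the bases from position 2 to position 8. Pantothenate kinases phosphorylate vitamin B5 in the first step of coenzyme A synthesis, and acetyl groups carried by coenzyme A are the building blocks of cholesterol, from which the adrenal cortex makes steroids. In other mouse and human tissues, miR-103 and miR-107 are known to repress the miRNA-processing enzyme Dicer and to affect insulin sensitivity through caveolin-1. The host mRNAs were not measured here.

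How little the members differ in sequence bears on what can be counted for each gene, so the mature arms are shown first, from RefSeq on GRCm38.p6, with the seed in capitals.
miR-107-3p: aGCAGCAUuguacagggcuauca
miR-103-3p, from both Mir103-2 and Mir103-1: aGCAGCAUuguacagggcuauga
miR-107-5p: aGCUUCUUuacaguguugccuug
miR-103-2-5p: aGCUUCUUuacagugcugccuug
miR-103-1-5p: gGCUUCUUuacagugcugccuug
All arms are 23 bases long. The 3p arms have a single seed, GCAGCAU, and the 5p arms another, GCUUCUU. Counting from the 5′ end of the arm, miR-103-3p and miR-107-3p differ by 1 substitution, G22C. Between the 5p arms, miR-103-2-5p and miR-103-1-5p differ by A1G, and miR-103-2-5p and miR-107-5p by C16U. No other measured gene with a RefSeq mature sequence had an arm with either seed.

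The whole hairpins show the letters that set the genes apart outside the arms, which are in capitals here.
Mir107: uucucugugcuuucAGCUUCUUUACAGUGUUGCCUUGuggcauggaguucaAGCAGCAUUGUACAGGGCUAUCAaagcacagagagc
Mir103-2: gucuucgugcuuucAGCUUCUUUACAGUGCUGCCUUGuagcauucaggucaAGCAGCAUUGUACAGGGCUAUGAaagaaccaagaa
Mir103-1: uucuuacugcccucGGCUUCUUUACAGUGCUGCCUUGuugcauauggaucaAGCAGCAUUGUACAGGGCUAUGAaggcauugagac
In a global alignment Mir107 and Mir103-2 were identical at 83.9% of aligned columns, Mir107 and Mir103-1 at 80.5%, and Mir103-2 and Mir103-1 at 80.2%. The 5p and 3p arms sit at positions 15 to 37 and 52 to 74 of each hairpin.

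The shared letters reach past the 3p arm of the Mir103 genes. Mir103-2 and Mir103-1 share a run of 27 bases, shown here with the arm in capitals.
Shared by Mir103-2 and Mir103-1: ucaAGCAGCAUUGUACAGGGCUAUGAa
Shared by all 3 hairpins: ucaAGCAGCAUUGUACAGGGCUAU
The run shared with Mir107 is 24 bases and ends before the base that differs. A read that starts at the first base of miR-107-3p and is 21 bases long or shorter therefore occurs in all 3 hairpins, while one of 22 or 23 bases occurs in Mir107 alone. A full-length miR-103-3p read of 23 bases occurs in both Mir103 hairpins. On the 5p side Mir103-2 and Mir103-1 share 23 bases, which cover 22 of the 23 bases of the arm, and reads that begin at the annotated first base differ at that base. These are matches of letters among 1005 hairpins of the RefSeq table and not a rerun of the alignment, whose allowance for mismatches and end trimming no source used here gives.

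**Figure D1:**
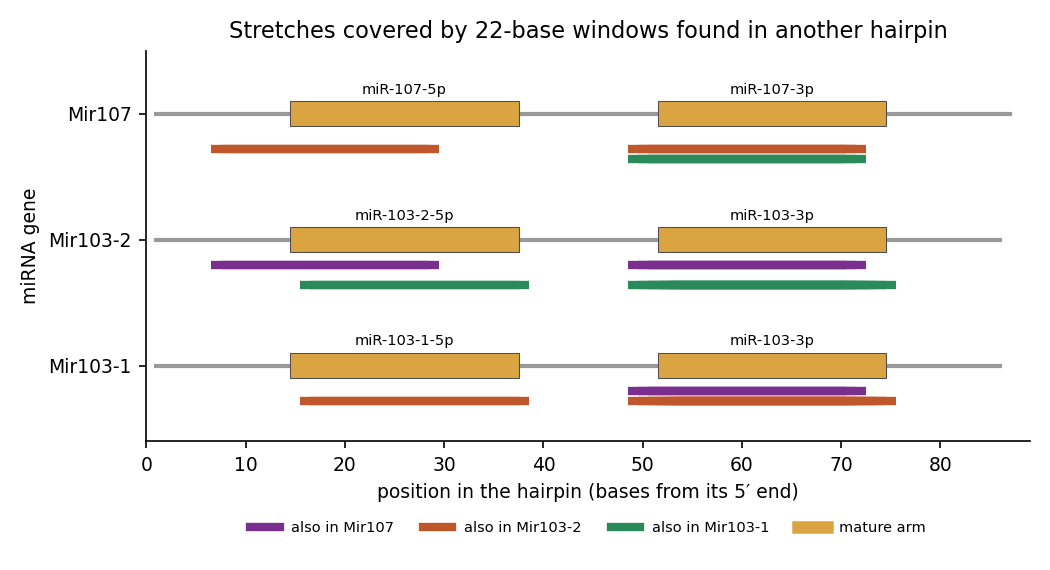
The 3 hairpins are drawn against the position in bases from the 5′ end, with the mature arms as boxes and, below each, coloured bars over the stretches covered by 22-base windows that also occur in another member. The bar that Mir103-2 and Mir103-1 share runs over their whole 3p arm, whereas the bars shared with Mir107 stop before the end of that arm.

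Of the 22-base windows, 10 of 65 in Mir103-2 and 8 of 65 in Mir103-1 also occurred in another hairpin, against 5 of 66 in Mir107. The 3 genes are also placed alike in their hosts. Mir107 (ENSMUSG00000065594.1) lies at chr19:34820687-34820773 on the minus strand of mm10, in intron 5 of Pank1, and begins 326 bases after the upstream exon. Mir103-2 (ENSMUSG00000065563.1) is a plus-strand gene at chr2:131288052-131288137, in intron 5 of Pank2, 454 bases after the upstream exon. Mir103-1 (ENSMUSG00000065553.1) lies at chr11:35782396-35782481 on the plus strand, in intron 5 of Pank3, 688 bases after the upstream exon. Each host transcript used, the principal isoform in GENCODE M21, has 7 exons and runs on the strand of its miRNA. The introns measure 7282 bases in Pank1, 5801 bases in Pank2 and 1740 bases in Pank3. No gene other than the host overlaps any of the hairpins in that annotation.

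The libraries held 3327743 same-strand miRNA gene counts in pup 2 and 1131762 in pup 1, a depth ratio of 2.94. Levels are each gene's share of these, scaled to a library sum of 1000000 (CPM), and a fold between genes compares numbers of reads, as the annotated hairpins have nearly equal lengths of 87, 86 and 86 bases. Reads that mapped to several places, 2032469 in pup 2 and 785013 in pup 1, are in no gene row. The tables hold miRNA genes alone, so the protein markers of adrenal cortex and medulla could not be checked, and no defining miRNA marker of the adrenal was available. Of 14 miRNAs listed for endothelial, neuroendocrine, smooth muscle, erythroid, hepatocyte, skeletal muscle, myeloid and kidney cells, 12 reached 10 CPM in both pups, and Mir133b and Mir194-1 did not. In bulk glands, fewer cells of a type and less RNA per cell cannot be told apart.

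Mir107 carried nearly all counted reads of the family. It had 3570 counts in pup 2, or 1073 CPM (exact Poisson 95% interval 1038 to 1109), and 1657 counts in pup 1, or 1464 CPM (1394 to 1536). Its mean was 1268 ± 277 CPM (SD, n = 2), rank 69 of all gene rows, with rank 76 in pup 2 and rank 67 in pup 1. It was thus above 89.1% of the 635 genes with a count in at least 1 pup. Intervals cover counting error only, since PCR copies without molecular identifiers are not independent molecules.

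Mir103-2, the copy in Pank2, had 64 counts in pup 2, or 19.2 CPM (14.8 to 24.6), and 16 counts in pup 1, or 14.1 CPM (8.08 to 23.0). The mean of 16.7 ± 3.60 CPM (SD, n = 2) placed it at rank 260. Both pups lay above 10 CPM, and their counting intervals overlapped.

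Mir103-1, the copy in Pank3, was close to the limit of counting. It had 5 counts in pup 2, or 1.50 CPM (0.488 to 3.51), and 4 counts in pup 1, or 3.53 CPM (0.963 to 9.05), with a mean of 2.52 ± 1.44 CPM (SD, n = 2) at rank 362. A level of 3 counts corresponds to 0.902 CPM in the deeper library of pup 2 and to 2.65 CPM in that of pup 1, so a few reads decide its value in either animal.

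**Figure D2:**
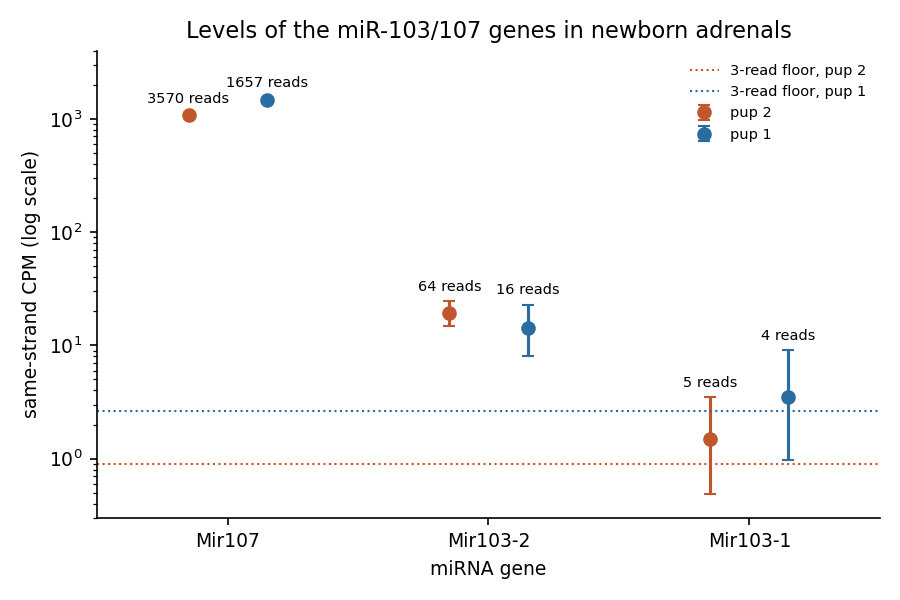
Same-strand CPM on a log axis is shown for each gene in pup 2 and pup 1, with exact Poisson 95% intervals and the number of reads, and dotted lines at the level of 3 reads in each library. Mir107 lies at 1073 and 1464 CPM, Mir103-2 between 14.1 and 19.2 CPM, and Mir103-1 near the dotted lines.

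All 3 genes had a count in both pups, and 32.2% of all gene rows had a count in at least 1. Mir107 and Mir103-2 reached 10 CPM in both pups, as did 13.9% of all gene rows, and Mir103-1 did not. The order Mir107, Mir103-2, Mir103-1 was the same in both animals. In pup 2 the counting intervals of the 3 genes were separate, while in pup 1 the upper bound of Mir103-1, 9.05 CPM, lay just above the lower bound of Mir103-2, 8.08 CPM. For each Mir103-2 read, pup 2 had 55.8 Mir107 reads, with an exact 95% interval of 43.6 to 72.6. Pup 1 had 104, with an interval of 63.6 to 182. For each Mir103-1 read there were 714 Mir107 reads in pup 2 (306 to 2200) and 414 in pup 1 (161 to 1522). These ratios compare unlike rows. By its letters, full-length miR-107-3p can be placed at Mir107 alone, while full-length miR-103-3p fits both Mir103 hairpins and has no row of its own. The intervals do not cover this.

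**Figure D3:**
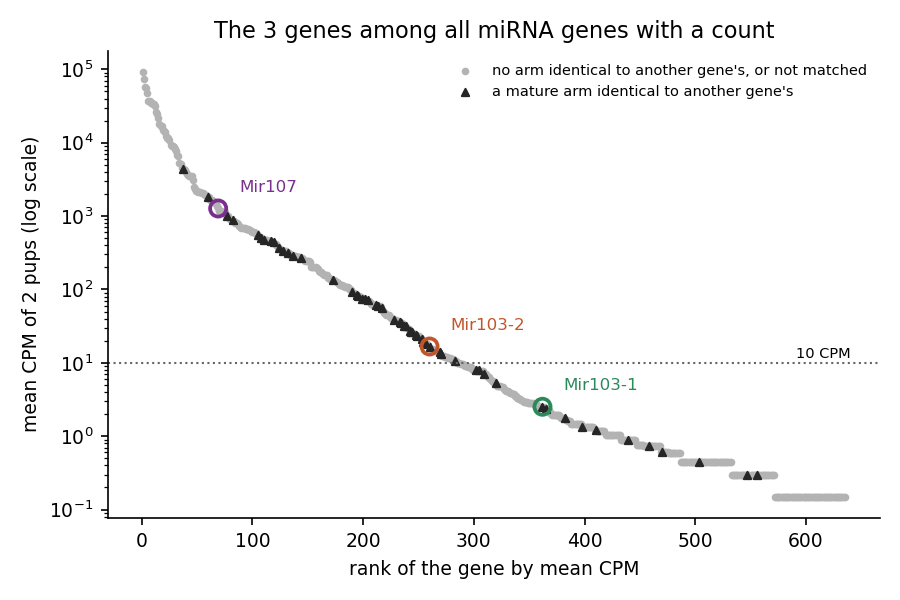
The mean CPM of the 2 pups on a log axis is plotted against the rank of each miRNA gene with a count, with triangles for genes that have a mature arm identical to another gene's, and rings around the members. Mir107 sits at rank 69, Mir103-2 at rank 260 just above the 10 CPM line, and Mir103-1 at rank 362 below it.

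Mir107 made up 98.1% of the family's 3639 counts in pup 2 (exact Clopper-Pearson 95% interval 97.6 to 98.5) and 98.8% of its 1677 counts in pup 1 (98.2 to 99.3). Within the Mir103 rows, Mir103-2 gave 64 of 69 counts in pup 2, or 92.8% (83.9 to 97.6), and 16 of 20 in pup 1, or 80.0% (56.3 to 94.3). Mir103-2 was the higher of the copies in each pup, and the intervals of its share overlapped between them. These shares hold for reads placed at a single locus. Full-length miR-103-3p has no such locus, as its letters above show, and how many of the multi-mapped reads were miR-103-3p was not tested. Scaled to 1000000 gene counts, multi-mapped reads amounted to 610765 in pup 2 and 693620 in pup 1, so the gene rows set no useful upper limit on miR-103-3p. Gene counts alone do not tell whether reads of the 5p or the 3p arm filled a row. By letters, reads of 18 to 23 bases from the first base of miR-103-3p occur in 2 or 3 hairpins. Such reads of either Mir103 5p arm occur in 1. How the alignment placed them was not tested.

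The pups were set side by side to see whether the family's levels were repeatable, with no p-value because each pup has 1 library. Mir107 was lower in pup 2, with a ratio of pup 2 over pup 1 of 0.733 (exact conditional 95% interval 0.691 to 0.777) and a log2 ratio of -0.45 at a prior of 1 CPM. That difference exceeded the counting error of reads taken as independent but lay inside the spread of other miRNAs. Among 51 genes within 2-fold of its mean level, log2 ratios ran from -0.95 to 0.69 with an SD of 0.39, and 7 of them were lower than that of Mir107. Among the 284 genes that averaged at least 10 CPM, whose median log2 ratio was 0.08 with 165 higher and 119 lower in pup 2, 33 had a lower ratio and 31.7% had a larger ratio in either direction.

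Mir103-2 had a pup 2 over pup 1 ratio of 1.36 (0.777 to 2.52), a log2 ratio of 0.42, and the counting interval spans both directions. Mir103-1 had a ratio of 0.425 (0.0915 to 2.14), and its log2 ratio of -0.86 became -0.39 with a prior of 5 CPM. Neither Mir107 nor Mir103-2 was 2-fold apart, a threshold passed by 5.28% of the 284 genes (3.52% higher and 1.76% lower in pup 2), and Mir103-1 was below the level at which that threshold was applied. TMM scaling shifted the median log2 ratio up by 0.11, and Mir107 then had -0.34, with 34 of the 284 genes lower.

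The direct comparison of 2 members does not depend on library scaling. Mir103-2 had 1.79 reads per 100 Mir107 reads in pup 2 and 0.966 in pup 1, a ratio of 1.86 whose interval, 1.06 to 3.45, covers counting error only. For Mir103-1 against Mir107 the values were 0.140 and 0.241 reads per 100, a ratio of 0.580 (0.125 to 2.93). The point values of Mir107 and Mir103-2 lay on opposite sides of an equal level between the pups, with the 16 counts of Mir103-2 in pup 1 setting the width of that interval.

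**Figure D4:**
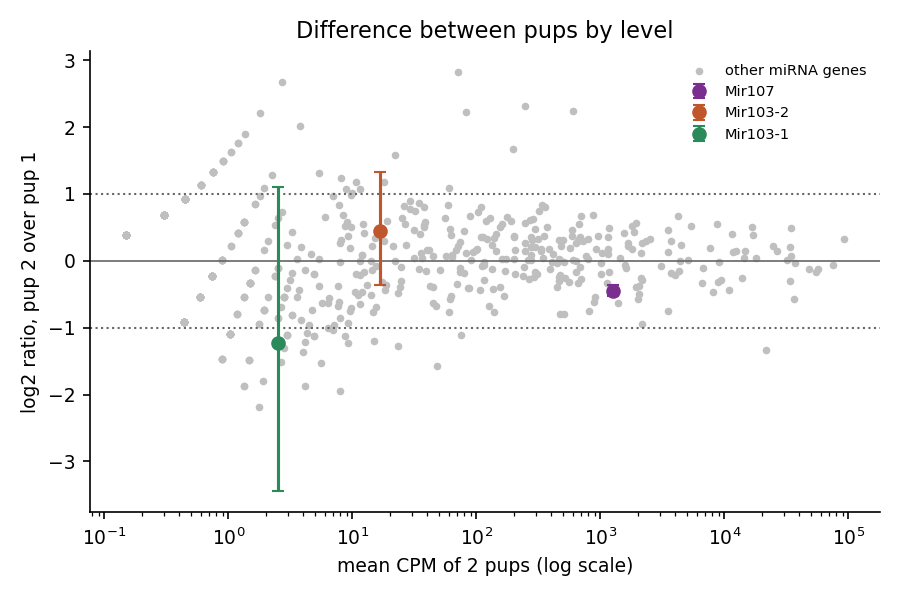
The log2 ratio of pup 2 over pup 1 is plotted against mean CPM on a log axis, with dotted lines at 2-fold. Grey points are the other genes at a prior of 1 CPM, and the members are plain CPM ratios with exact 95% counting intervals, narrow for Mir107 at 0.733 and spanning both directions for Mir103-2 and Mir103-1.

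Other measures differed between the same pups, and their part in the Mir107 difference was not tested. Depth differed 2.94-fold, and 11 of the 14 listed marker miRNAs were higher in pup 2, as were 165 of the 284 genes averaging at least 10 CPM. The summed marker level for the endothelium was 102288 CPM in pup 2, against 81620 CPM in pup 1. In the same order it was 19776 and 15116 CPM for smooth muscle, 412 and 82.2 CPM for skeletal muscle, and 4081 and 2979 CPM for hepatocytes. For myeloid cells the pup 2 level was 883 CPM, against 704 CPM in pup 1, and for kidney 201 against 144 CPM. The kidney marker Mir194-1 went the other way, with 2.70 CPM in pup 2 and 13.3 CPM in pup 1, as did the erythroid Mir486, with 36.1 and 58.3 CPM. The neuroendocrine marker Mir375, with 30415 CPM in pup 2 against 37586 CPM in pup 1, was lower in pup 2 as Mir107 was, and the erythroid sum was 337.2 CPM in pup 2 against 339.3 CPM in pup 1. The only marker at 0 in a library was Mir133b in pup 1, with 4 counts in pup 2.

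The genes closest to each member were taken by Euclidean distance of log2(CPM + 1) over the 2 libraries. For Mir107 these were Mir501, with 1077 CPM in pup 2 and 1674 CPM in pup 1 at a distance of 0.19, then Mir674 at 0.25 and Mir455 at 0.25. For Mir103-2 they were Mir758, with 19.8 CPM in pup 2 and 15.9 CPM in pup 1 at a distance of 0.16, then Mir33 at 0.18 and Mir128-2 at 0.27. Mir33 lies in a gene of cholesterol regulation, Srebf2, by its known annotation. For Mir103-1 they were Mir1943, which had the same 5 and 4 counts, then Mir3058 at 0.16 and Mir6546 at 0.26. With 2 libraries such likeness is mostly likeness of level.

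Beside Mir107 and the Mir103 genes, other miRNAs carry nearly the same start shifted by 1 base. Bases 1 to 7 of miR-107-3p, AGCAGCA, form the seed of the miR-15/16 family, known for repressing cell-cycle genes, as these arms show with bases 2 to 8 in capitals.
miR-322-5p: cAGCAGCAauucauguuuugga
miR-15a-5p: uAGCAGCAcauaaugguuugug
miR-16-5p: uAGCAGCAcguaaauauuggcg
Of 10 measured genes with that seed, 6 had counts. Mir322 was the most abundant, with 26551 CPM in pup 2 and 22882 CPM in pup 1, followed by Mir15a with 2586 and 2097 CPM and Mir16-1 with 2135 and 1482 CPM. Mir107 lay below these and above Mir15b, at 976 CPM in pup 2 against 863 CPM in pup 1. Mir16-1 was above Mir107 in both pups, at 2135 against 1073 CPM in pup 2 and 1482 against 1464 CPM in pup 1. Their means were 1808 ± 462 CPM and 1268 ± 277 CPM (SD, n = 2). The margin was wide in pup 2 and small in pup 1, so the order of these neighbours beyond these pups is not resolved. In addition, miR-16-5p is the arm of both Mir16-1 and Mir16-2, and reads that map to several places are in no gene row. How many such reads the row of Mir16-1 lacks was not tested.

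Of 10 listed miR-15/16 relatives, 9 had a row, 7 had counts and the same 7 reached 10 CPM in both pups. All 7 were higher in pup 2, with a median log2 ratio of 0.31, a direction opposite to that of Mir107, beside a median of 0.08 over the 284 genes, of which 165 were higher. None was 2-fold apart. Their log2 ratios ran from 0.18 for Mir15b to 0.83 for Mir16-2. The relatives share clusters, such as Mir15a with Mir16-1 and Mir15b with Mir16-2, so they are not independent.

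MiRNAs known from lipid and glucose metabolism gave a second frame. Of 15 measured, 13 reached 10 CPM in both pups, against 13.9% of all gene rows, and none was 2-fold apart, against 5.28% of the 284 genes. The list was chosen with earlier results of these data known, so its share at 10 CPM was not read as a result. Their median log2 ratio was 0.18, with 11 higher and 2 lower in pup 2, beside 0.08 with 165 higher and 119 lower over the 284 genes. The highest were Mir375, of islet and neuroendocrine cells, with a mean of 34000 ± 5070 CPM, Mir335, in an intron of Mest, with 33601 ± 3393 CPM, and Mir26b, in an intron of Ctdsp1, with 26551 ± 1867 CPM (SD, n = 2). Mir107 came between Mir27b, at 2146 ± 125 CPM, and Mir29a, at 686 ± 117 CPM. Mir33 had 17.1 CPM in pup 2 and 13.3 CPM in pup 1, near the level of Mir103-2.

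Against 15 other intronic miRNAs of protein-coding genes, Mir107 ranked between Mir93, with 1449 ± 27.5 CPM, and Mir106b, with 1154 ± 201 CPM (SD, n = 2). These SDs overlap with that of Mir107, and the order of the means held in neither pup. In pup 2 Mir107, at 1073 CPM, was below both Mir93, at 1469 CPM, and Mir106b, at 1295 CPM. In pup 1 Mir107, at 1464 CPM, was above both, at 1430 and 1012 CPM. The highest were Mir26b, Mir139 with 12710 CPM in pup 2 and 15271 CPM in pup 1, and Mir30e with 13131 and 9938 CPM. Of the 15, 14 reached 10 CPM in both pups, against 13.9% of all gene rows. Choosing miRNAs found in many tissues favours such a share, so it was not read as a result. Only Mir30c-1, with a log2 ratio of -1.11, was 2-fold apart, or 1 of the 15, against 5.28% of the 284 genes. The median log2 ratio of the list was 0.14, with 11 higher and 4 lower in pup 2, beside 165 higher and 119 lower over the 284 genes.

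The gap between Mir107 and the Mir103 copies was set beside like cases, chosen after the values were seen. Among measured genes with RefSeq mature arms, 11 seeds joined an arm found at several genes to a relative with its own arm, different at 3 bases or fewer and at a mean of 10 CPM or more. Relatives entered only at 10 CPM or more, with no such minimum for the copies. Reads that map to several copies are in no gene row, so the set favours relatives above copies. The highest relative lay above the highest copy in 9 of the 11 seeds, a count given as description and not read as a result. The row of Mirlet7c-2 was the highest copy for the seeds of both let-7c-5p and let-7a-1-3p, so the 11 seeds are not independent cases. Mir107 had a mean of 1268 CPM and Mir103-2 16.7 CPM, and Mir26b had 26551 CPM beside 38.8 CPM of Mir26a-2. The exceptions were the sets of miR-16-5p and miR-92a-3p. In the first the copy Mir16-1 had 1808 CPM and its near-identical relative Mir195a 588 CPM. In the second Mir92-1 had 1014 CPM and Mir25 275 CPM. Mir322 and Mir15a have the seed of miR-16-5p but differ from it at more than 3 bases. They lay above Mir16-1, with means of 24717 and 2342 CPM.

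**Figure D5:**
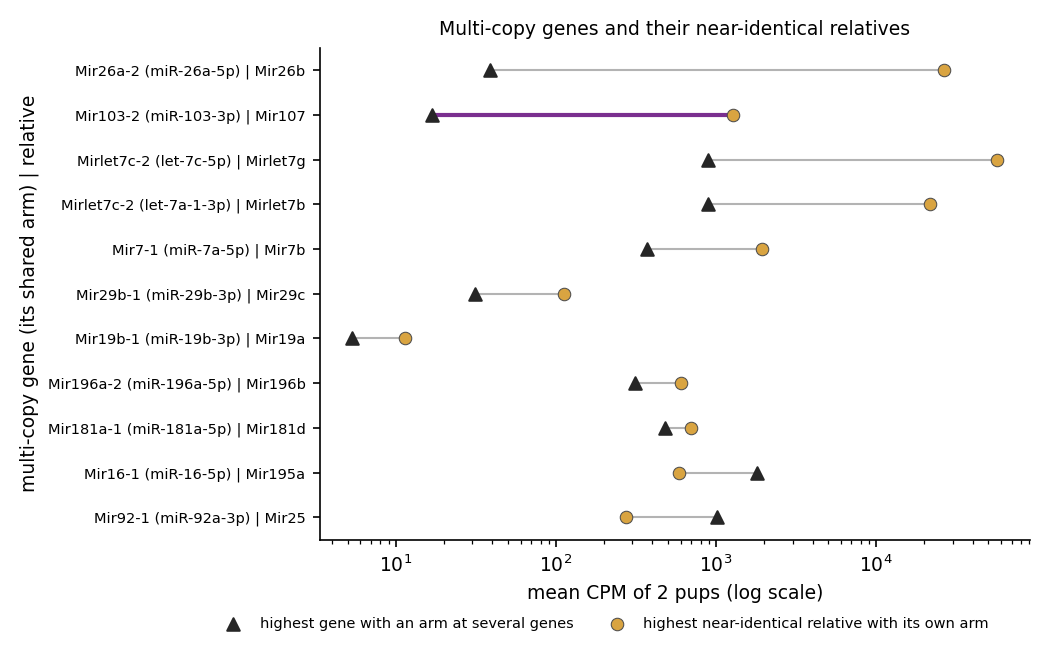
For each of 11 seeds, the mean CPM of the 2 pups on a log axis is shown for the highest gene whose arm is also at another gene (triangle) and for its highest near-identical relative with its own arm (circle). The purple line joins Mir103-2 at 16.7 CPM and Mir107 at 1268 CPM, only relatives at 10 CPM or more were drawn, and for Mir16-1 and Mir92-1 the circle lies left of the triangle.

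Genes with an arm also found at another gene lay at many levels. Of 87 genes with such an arm, 56 (64.4%) had counts and 46.0% reached 10 CPM in both pups. Among the 829 matched genes without one, these shares were 61.2% and 25.7%. The 87 genes together held 1.34% of the mean CPM, against 95.3% for the 829. What a shared arm does to the counts of a gene was not tested. Mir103-2 ranked 38 and Mir103-1 ranked 46 among the 87, so 37 genes whose arms are also shared had more counted reads than Mir103-2. How many reads of those genes came from bases outside the shared arm was not tested.

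On the strand opposite to each of the 3 genes, neither pup had a read. A count of 0 leaves room for a level of 0.902 CPM in pup 2 and of 2.65 CPM in the shallower pup 1, by the limit of 3 counts. The unstranded counts therefore equalled the same-strand ones.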

How the data were processed

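Small RNA libraries below 30 nucleotides were sequenced from the adrenals of 2 newborn littermates. The deposited tables, 1 per library, hold raw read counts for each miRNA gene on mm10 with GENCODE M4, per the deposited sample notes. No source used here names the aligner or the trimming. The same-strand count column (column 3) was used. The 4 rows that name no gene were left out of library sizes, and gene rows held 52.7% of all reads in pup 2 and 50.4% in pup 1, with multi-mapped reads at 32.2% and 34.9%.

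CPM was each count over the same-strand gene total. Log2 ratios of pup 2 over pup 1 had a prior of 1 CPM and were called at 2-fold among genes averaging at least 10 CPM. Of 1973 rows, 1894 matched a GENCODE M21 symbol and 916 a RefSeq mature sequence. Intervals are exact at 95% (SciPy 1.17.1), and the ratio step was run on simulated Poisson counts. Such counts follow the model of the interval, so they check the computation and not PCR copies or spread between pups. edgeR 4.0.16 and DESeq2 1.42.0 gave alternative scalings only. Named genes were the members, the 3 nearest genes, the top 3 of each list, genes with a member's seed, and the 5 highest sums of genes sharing an arm; others were chosen after their values were seen. The members and lists were chosen with earlier results of these data known. Mir497a, Mir378a and Mir191 were on the lists and are not analysed here.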

Additional observations from a re-analysis of the deposited data

How the results depend on the processing

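With library size taken as all reads, the mean of Mir107 was 652 CPM and that of Mir103-2 8.63 CPM, as the denominator then holds multi-mapped and unmapped reads. With TMM scaling the log2 ratio of Mir107 was -0.34, as this scaling moved the median ratio up by 0.11. Without the filter on level, 85 of 635 genes were 2-fold apart instead of 15 of 284, since genes of few reads then enter, and 11 were with a prior of 5 CPM. Means without replicate 1 and without replicate 2 were 1073 and 1464 CPM for Mir107, 19.2 and 14.1 CPM for Mir103-2, and 1.50 and 3.53 CPM for Mir103-1, and the share of Mir107 was 98.1% and 98.8%. Mir107 stayed lower, Mir103-2 higher and Mir103-1 lower in pup 2 under the 5 alternatives run for each ratio (unstranded column, all-read library size, TMM, DESeq2 and a prior of 5 CPM). Depth limits Mir103-1, with 5 and 4 counts, most. No paired analysis was possible because the series has a single group.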

Other observations

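Of 44 mature arms that each join a group of measured genes, 28 had a count in at least 1 gene row of the group. Where the same genes form the group of both arms, as Mir9-2 and Mir9-3 do, they enter once for each arm. Those repeated groups had no counts. The rows do not separate arms and leave out multi-mapped reads, so the sums below are of gene rows and are not levels of an arm. Mir103-2 and Mir103-1 together had 20.7 CPM in pup 2 against 17.7 CPM in pup 1. The highest sum was that of Mir16-1 and Mir16-2, at 2568 CPM in pup 2 against 1725 CPM in pup 1. Mirlet7c-2 and Mirlet7a-1 had a sum of 1198 CPM in pup 2 against 1697 CPM in pup 1. Mirlet7c-2 also shares an arm with Mirlet7c-1, and that pair had 1072 CPM in pup 2 against 1723 CPM in pup 1. Mir92-1 and Mir92-2 had 1078 CPM in pup 2 against 1091 CPM in pup 1, and Mir125b-1 and Mir125b-2 had 857 against 964 CPM. The rows of a group were far apart for Mir92-1, with a mean of 1014 CPM, and Mir92-2, with 70.9 CPM, while Mir125b-1 and Mir125b-2 had 461 and 449 CPM.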
